A study of Mus musculus with 4 samples.

Results

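Granulocytes made up 410 of the 32518 cell barcodes that passed the limits on depth and mitochondrial reads in single-cell RNA sequencing of 4 mouse brains (1.26%), out of 36876 barcodes in all. They were chosen by their own transcripts: a barcode was taken when it held at least 500 unique molecular identifiers (UMIs, each one counted transcript), at most 15.8% of them from mitochondrial genes, at least 100 UMIs of S100a8 and S100a9 together per 10,000, and fewer than 30 UMIs of the 3 C1q genes together per 10,000. The C1q limit separates them from microglia and macrophages. Within them, a cell with at least 50 UMIs per 10,000 of Camp, Ngp and Ltf together was called immature and any other cell mature, which gave 179 immature and 231 mature cells. These genes were selected on the measured values, so their levels in the chosen cells are a description and carry no test.

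The 4 brains came from male C57BL/6J mice, 1 for each combination of age and diet, so that each age and each diet is represented by 2 mice and no combination is repeated. Adult mice were 3 to 4 months old and aged mice 23 to 24 months old when they were moved from a purified diet to a modified version of it that held 1% cellulose and either 0 or 5% inulin, a fermentable fiber, for 8 weeks. The adult mice were raised in-house and the aged mice came from the National Institute on Aging colony, so source and age cannot be told apart. Mice were perfused with buffer, whole brains were dissociated with warm enzymes, and myelin, debris, red blood cells and dead cells were removed before libraries of transcript 3′ ends were made. Below, the 4 values of a measurement are given in the order adult 0%, adult 5%, aged 0% and aged 5% inulin, and a level is the sum of a gene's UMIs over the cells of 1 mouse per 10,000 UMIs of those cells. Each transcript is tagged once at its 3′ end, so levels of different genes were compared without scaling to length. The 4 libraries held 115814810, 111648775, 88248117 and 108131200 UMIs, of which the granulocytes held 641662, 1260437, 748697 and 720838, with between 527 and 84351 UMIs per cell.

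Neutrophils, the main granulocytes, are made in the bone marrow from dividing precursors that load granules in a fixed sequence. Azurophil granule proteins such as myeloperoxidase are made first, specific granule proteins such as lactoferrin next, and gelatinase granule proteins after the last division. Mature cells leave the marrow with the chemokine receptor Cxcr2 and the cytokine receptor Csf3r on their surface, and are normally held in the blood vessels and the borders of the brain instead of its tissue.

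The label was checked against 16 supporting neutrophil genes, of which the chosen cells held a median of 12. Only 2 of the 410 cells held fewer than 2 of them. Retnlg, a resistin-like protein of neutrophils that was not used in the choice, had a UMI in 93.9% of the cells against 2.98% of the 7591 C1q-rich cells, the barcodes with at least 30 C1q UMIs per 10,000 and fewer than 100 of S100a8 and S100a9. Cxcr2 was detected in 89.0% against 0.211%, Ly6g, the classical surface marker of mouse neutrophils, in 70.2% against 0.158%, and Hdc, which makes histamine, in 96.1% against 1.84%. The gap was smaller for Csf3r, found in 89.5% against 60.9%, and for the antibacterial gene Pglyrp1, in 96.6% against 10.8%. The median depth was 6118.5 UMIs in the granulocytes and 6793 in the C1q-rich cells, so the C1q-rich cells were the deeper of the 2 populations. Eosinophil genes were close to absent, with Epx, Prg2, Ear6 and Ccr3 at 0 and Siglecf at 0.0386 UMIs per 10,000, and of 6 mast cell and basophil genes Cpa3, Fcer1a and Prss34 were at 0 and the other 3 had UMIs in 22 cells, with Gata2 the most abundant at 0.151. The 7 monocyte genes summed to between 8.21 and 9.59 UMIs per 10,000 over the 4 mice, with Ly6c2 the most abundant at 7.06.

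The lowest cells inside the rule had 102 and 104 UMIs of S100a8 and S100a9 per 10,000, the highest barcodes outside it 88.7 and 83.1, and 360 of the 410 cells had at least 800. S100a8 and S100a9, which form calprotectin, lie 22.6 kb apart on chromosome 3 (GRCm38 chr3:90668978-90670035 and chr3:90692632-90695721, both protein-coding). Over the barcodes outside the rule they averaged 0.538 and 0.646 UMIs per 10,000. A further 10 barcodes passed the S100 limit and failed the C1q limit. They numbered 2, 4, 0 and 4 by mouse and were left out.

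**Figure D1:**
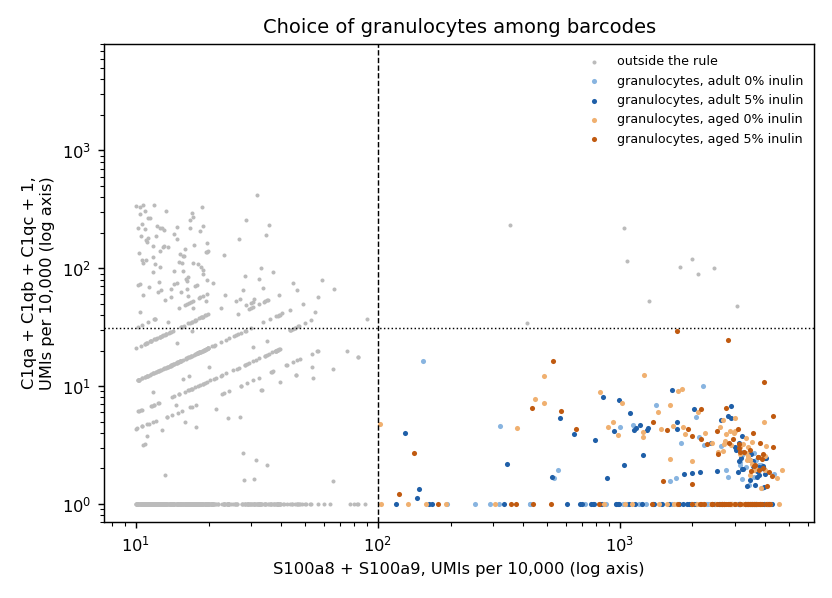
Each point is 1 barcode with at least 10 UMIs of S100a8 and S100a9 together per 10,000, with that sum on the horizontal log axis and the sum of the 3 C1q genes plus 1 on the vertical log axis. Dashed and dotted lines mark the limits of 100 and 30 per 10,000, granulocytes are coloured by mouse, and the 10 grey barcodes to the upper right are those left out for C1q.

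Transcripts of other brain cells were present in the granulocyte droplets and have to be read beside every result. Ttr, the transthyretin of choroid plexus, was found in all 410 granulocytes and in 7590 of the 7591 C1q-rich cells. A single adult 5% barcode with 84351 UMIs, the deepest of all and 6.69% of that mouse's granulocyte UMIs, held 4034 UMIs of choroid plexus genes per 10,000. Endothelial genes summed to 2.63, 10.8, 2.00 and 9.96 UMIs per 10,000 by mouse, with Cldn5 the most abundant, and astrocyte genes to 8.91, 12.2, 6.21 and 3.26, with Slc1a2 the most abundant. Endothelial genes were thus high in both 5% inulin mice, and astrocyte genes were higher in both adult mice than in both aged mice. In all, 58 granulocytes (9, 26, 10 and 13) held at least 20 UMIs per 10,000 of brain cell marker genes, or at least 1000 of choroid plexus genes. The marker genes were those of the endothelial, mural, astrocyte, oligodendrocyte and neuron lists, with Ccdc153, Tmem212 and Rarres2 added. Each count of genes called between ages or diets is also given without these 58 cells, an alternative chosen after seeing the data. For the comparison of cell populations, C1q-rich cells past the same limits were left out as well. Scrublet, which scores likely doublets, marked 8 granulocytes (1.95%) against 2.86 to 4.06% of the barcodes of a mouse that passed the limits. No barcode sequence of a granulocyte occurred in another library.

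The 3 genes that define the immature cells lie on chromosome 9 within 1.20 Mb: Camp, which encodes the antimicrobial cathelicidin (chr9:109847379-109849617, minus strand), Ngp, neutrophilic granule protein (chr9:110419747-110423012, plus strand), and Ltf, lactoferrin (chr9:111019271-111042767, plus strand), all protein-coding in GRCm38. All 3 are known to need the transcription factor C/EBPε. Their promoters are shown because these 3 genes define the immature cells. They are printed 5′ to 3′ on the gene's strand, from RefSeq on GRCm38.p6, up to the last base before the gene starts in both RefSeq and GENCODE, with matches to TTNNGCAA, a core of C/EBP sites, on either strand in capitals. The Camp stretch is chr9:109849618-109849706, the Ngp stretch chr9:110419558-110419746 and the Ltf stretch chr9:111019042-111019270.
Camp: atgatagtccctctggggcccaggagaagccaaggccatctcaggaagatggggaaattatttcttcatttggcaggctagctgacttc
Ngp: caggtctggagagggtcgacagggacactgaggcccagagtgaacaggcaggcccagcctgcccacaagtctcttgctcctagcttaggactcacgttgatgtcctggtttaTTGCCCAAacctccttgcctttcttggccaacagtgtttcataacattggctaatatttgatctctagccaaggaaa
Ltf: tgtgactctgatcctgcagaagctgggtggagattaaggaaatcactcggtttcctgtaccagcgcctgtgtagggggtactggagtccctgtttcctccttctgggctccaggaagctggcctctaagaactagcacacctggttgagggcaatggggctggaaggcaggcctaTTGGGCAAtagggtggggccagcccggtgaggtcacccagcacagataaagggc
The Ngp match lies 77 to 70 bases before the end of its stretch, on the opposite strand, and the Ltf match 54 to 47 bases before it. None was found in the 89 bases of Camp. Of the 32851 RefSeq promoter windows cut to the same positions, 7.76% held a match at the 189 bases used for Ngp, 9.02% at the 229 used for Ltf and 3.68% at the 89 used for Camp. A match describes the letters only and was not tested as a binding site.

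Immature cells numbered 41 of 81, 59 of 128, 39 of 103 and 40 of 98 granulocytes, or 50.6% (exact 95% confidence interval 39.3 to 61.9), 46.1% (37.2 to 55.1), 37.9% (28.5 to 48.0) and 40.8% (31.0 to 51.2). Intervals cover counting error only. Both adult mice were above both aged mice, with means of 48.4% ± 3.20 for the adult pair and 39.3% ± 2.09 for the aged pair (SD, n = 2 per age), but the intervals of single mice overlapped. The difference of -9.02 percentage points gave p = 0.333 in an exact two-sided permutation test, the smallest p that 2 mice against 2 can give. It kept its direction without any 1 mouse (-11.3 to -6.75) and with every cell thinned to 500 UMIs (-9.29).

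The limit of 50 fell between the more populated ends of a continuous range. Camp, Ngp and Ltf together were at 0 in 131 cells, above 0 and below 20 UMIs per 10,000 in 73, from 20 to 50 in 27, from 50 to 200 in 32, from 200 to 800 in 77, and at 800 or more in 70. Only 31 cells lay between 25 and 100. The mature cell nearest to the limit had 49.8 and the immature cell nearest to it 50.5, so the 2 names mark ends of a range and not 2 separate cell types. Of the 179 immature cells, 166 held all 3 transcripts. A cell at 0 with the median depth of its range, 3404 UMIs, could still hold up to 8.81 UMIs per 10,000 (the limit that a count of 0 allows), well under the limit for an immature cell. Ngp in mature cells stood at 4.44, 4.39, 6.76 and 6.00 UMIs per 10,000, against a mean of 0.0424 in C1q-rich cells.

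**Figure D2:**
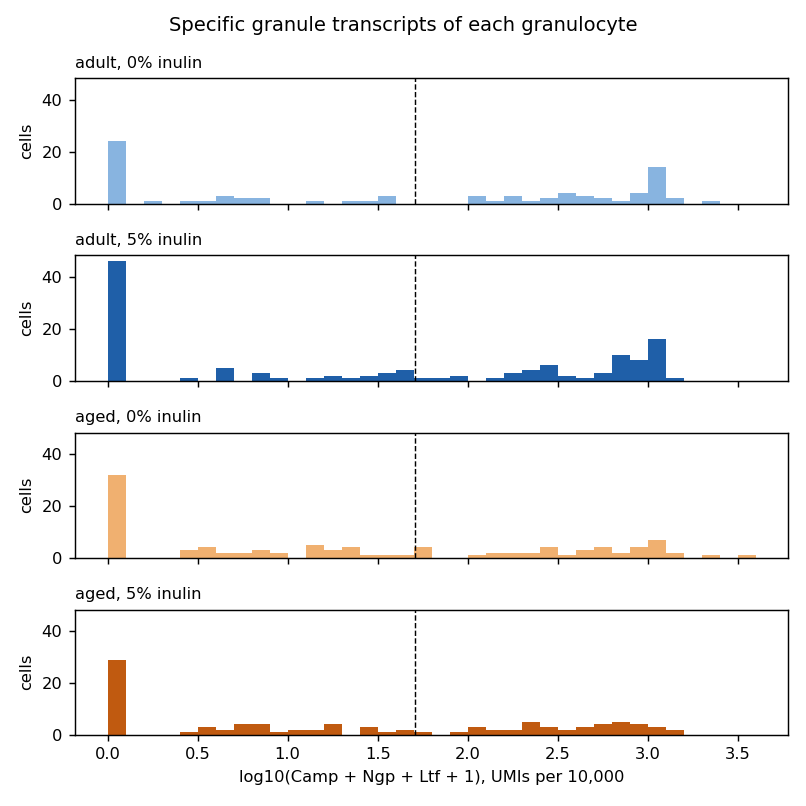
Histograms of the 410 granulocytes, 1 panel per mouse, with log10 of the summed Camp, Ngp and Ltf level plus 1 on the horizontal axis and the number of cells on the vertical axis. The dashed line marks 50 UMIs per 10,000, and in each mouse cells lie at 0 and well above the line, and thinly around it.

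Granulocytes as a share of the barcodes that passed the limits showed no order by age or diet. It was 0.979% (exact 95% confidence interval 0.778 to 1.21), 1.41% (1.17 to 1.67), 1.49% (1.22 to 1.80) and 1.19% (0.969 to 1.45). Adult mice averaged 1.19% ± 0.302 and aged mice 1.34% ± 0.210 (SD, n = 2 each, exact permutation p = 0.667, two-sided), and mice on 0 and 5% inulin 1.23% ± 0.361 and 1.30% ± 0.151 (exact permutation p = 1). The lowest and the highest mouse were both on 0% inulin. Per 100 C1q-rich cells there were 4.48, 6.86, 5.21 and 5.05 granulocytes. The age difference of 0.148 percentage points turned to -0.0655 without the adult 0% mouse and to -0.000449 without the aged 0% mouse.

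**Figure D3:**
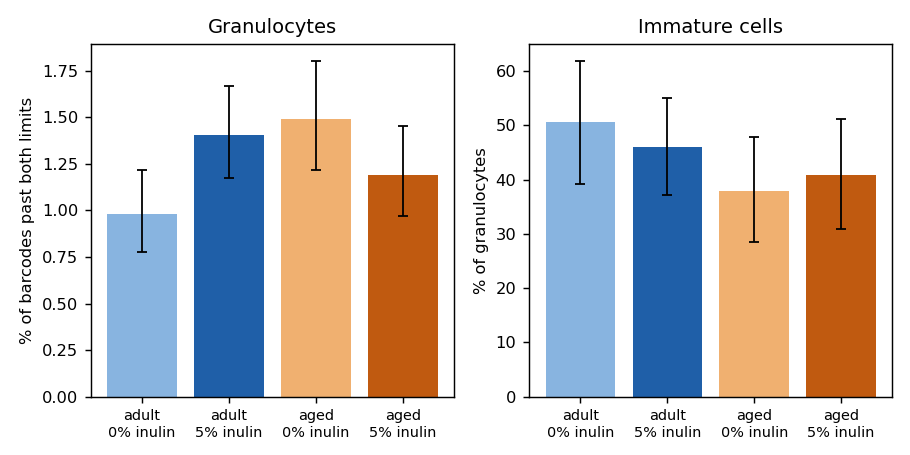
Bars give the granulocyte share of barcodes (left) and the immature share of granulocytes (right) in each of the 4 mice, with exact 95% binomial intervals. The immature share is 50.6 and 46.1% in the adult mice and 37.9 and 40.8% in the aged mice, and the granulocyte share runs from 0.979 to 1.49% with no order by age or diet.

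Other granulocyte genes followed 3 courses along the range of Camp, Ngp and Ltf, with their highest levels at the top, in the middle or at 0. The comparison of ranges is a description, since the cells were sorted by their own transcripts. Cells at 800 or more were the deepest, with a median of 13607 UMIs, against 9542 from 200 to 800 and 3404 at 0. Chil3, a chitinase-like protein of immature neutrophils, went from 105 UMIs per 10,000 in the top range to 27.6, 3.47, 1.17, 0.299 and 0.147 in the ranges below it. Lcn2, which binds bacterial iron carriers, declined less steeply, from 188 to 125, 89.7, 64.1, 30.0 and 15.6. Cebpe, the gene of C/EBPε, was at 6.77 in the top range and at 0.260 in cells at 0, and its mice did not overlap between these ranges (6.08 to 7.72 against 0.0811 to 0.424).

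Retnlg, Mmp8 and Mmp9 had their highest levels in the middle ranges. Retnlg was lowest in the top range at 11.2 UMIs per 10,000, reached 142, 340 and 393 in the next 3 and was 283 and 133 in the last 2. Mmp8, the neutrophil collagenase, had its highest levels from 20 to 200 (46.4 and 46.2), against 10.3 in the top range and 9.23 at 0, and Mmp9, gelatinase B, followed the same course (35.2 and 35.8, against 9.46 and 16.7). Every mouse had a higher Mmp8 level from 20 to 50 (40.0 to 51.7) than any mouse had in either end range (7.31 to 18.3 in the top range and 4.92 to 13.5 at 0).

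The receptor genes Csf3r and Cxcr2 and the cytokine genes Ccl6 and Il1b were highest in cells without Camp, Ngp and Ltf. Csf3r, the receptor for the growth factor G-CSF, went from 0.736 UMIs per 10,000 at the top to 1.73, 3.68, 5.48, 7.31 and 15.1. Cxcr2 went from 0.865 to 12.2, with 11.7 already from 20 to 50. Ccl6, a chemokine, went from 0.0398 to 23.2. Il1b, the inflammatory cytokine interleukin-1β, stayed at 2.15 or less down to the range of 20 to 50 and stood at 10.96 above 0 to 20 and 47.3 at 0, where the mice ranged from 30.8 to 68.3. Cebpb, another factor of the family, went the opposite way to Cebpe, from 2.77 to 16.4.

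**Figure D4:**
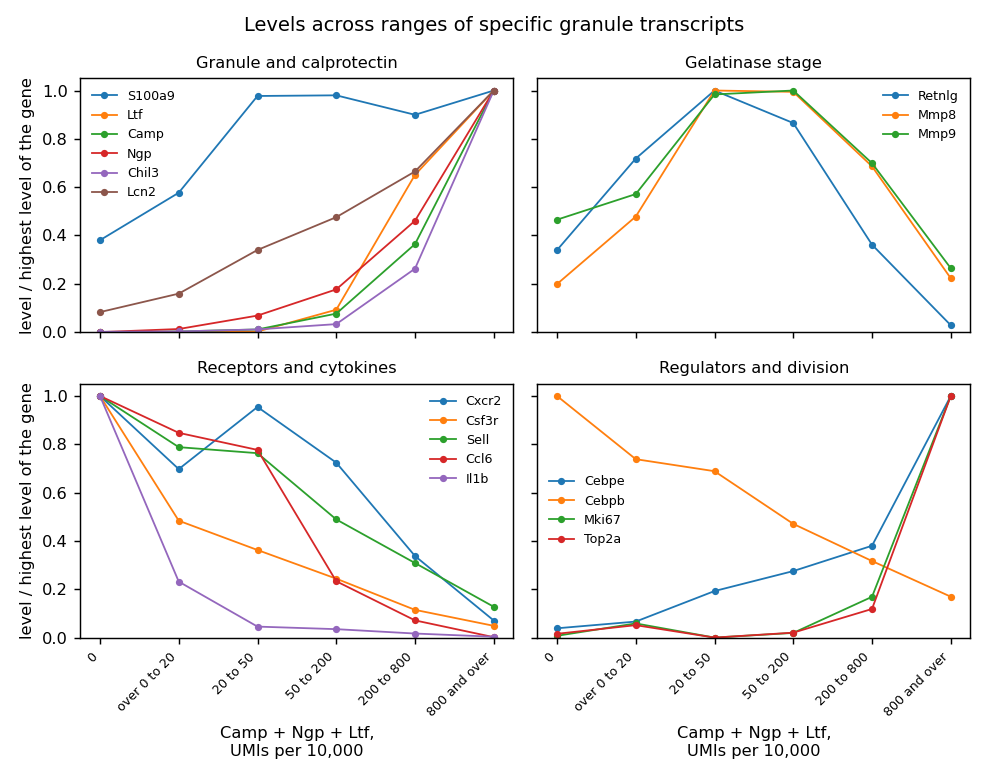
Level of each gene in 6 ranges of summed Camp, Ngp and Ltf, divided by the gene's highest level (vertical axis, linear), with the ranges in UMIs per 10,000 on the horizontal axis and all 4 mice pooled. Specific granule genes, Cebpe, Mki67 and Top2a are highest at the right, Retnlg, Mmp8 and Mmp9 in the middle, and Csf3r, Ccl6, Il1b and Cebpb at the left.

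Between the immature and the mature cells, 3481 genes had at least 100 UMIs, of which 389 were higher in immature cells in every mouse and 1376 higher in mature cells in every mouse, with no test. The median gene had a ratio of immature to mature of 0.761, so ratios near that value do not stand out. Of the 11 specific granule genes other than Camp, Ngp and Ltf, which define the split, 10 were higher in immature cells in every mouse, with a median ratio of 4.46. Chil3 was 146-fold higher (81.9, 68.4, 54.5 and 30.7 in immature against 0.866, 0.200, 0.136 and 0.406 in mature cells), Cybb, the membrane subunit of the NADPH oxidase, 6.51-fold, and Lyz2, lysozyme, 2.01-fold. Of 15 cell cycle genes with enough UMIs 11 were higher in immature cells in every mouse (median ratio 3.54), among them Hmgn2 at 3.54-fold and H2afz at 2.81-fold. Fcnb, ficolin B, was 16.2-fold higher in immature cells, and all 10 of its UMIs in mature cells came from 1 cell. The acute-phase protein gene Orm1, the proton channel gene Hvcn1, the activin gene Inhba and the replication gene Pclaf had 320, 191, 227 and 190 UMIs in immature cells and 1, 3, 3 and 1 in mature cells. Ffar2, a receptor for short-chain fatty acids, the products of fiber fermentation, had 123 UMIs in 62 immature cells and none in the mature cells, at least 22.7-fold higher in immature cells against a floor of 3 UMIs over all mature cells. Its levels in immature cells were 0.683, 0.678, 0.395 and 0.449. The histone genes Hist1h2ab and Hist1h1b completed the 12 genes of largest ratio among those with 1 direction in every mouse.

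Most receptor and inflammatory genes were higher in mature cells. Of 15 receptor genes with enough UMIs, 13 were higher in mature cells in every mouse (median ratio of mature to immature 2.42), and of 16 cytokine and inflammation genes 12 were (median 2.88), while the cytokine gene Tnf was 2.49-fold higher in immature cells. Il1b stood at 42.4, 17.5, 34.8 and 28.5 UMIs per 10,000 in mature and at 0.961, 0.505, 0.615 and 0.324 in immature cells, a 51.2-fold difference. Wfdc17, an antiprotease-like gene, was 39.6-fold higher, the prothrombinase gene Fgl2 32.6-fold, Socs3, a brake on cytokine signalling, 30.5-fold, and Atf3, a stress-response factor, 29.7-fold. The fungal sensor gene Clec7a (24.4-fold), the receptor genes Sirpb1c (27.9-fold) and Sirpb1b (19.3-fold), the adhesion gene Jaml (19.3-fold) and Ptgs2, cyclooxygenase-2 (16.1-fold), were among the 12 of largest ratio in the genes with 1 direction in every mouse, with Gm5150 (18.4-fold) and Stfa1 (16.6-fold). Sirpb1b, Sirpb1c and Gm5150 belong to a family of near-identical copies, as does Stfa1, so reads may have been split between them, and 38.9% of the Stfa1 UMIs came from 1 cell. The immediate early genes Fos and Junb were 2.95- and 4.61-fold higher in mature cells. Enzymatic digestion of warm tissue is known to induce such genes, and its part in these values was not tested.

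The remaining groups split less, and their counts are to be read beside those over all genes, of which 1376 of 3481 were higher in mature and 389 in immature cells in every mouse. In the interferon list 11 of 17 genes were higher in mature cells in every mouse, while Ifitm6 was 5.18-fold higher in immature cells. Among MHC class I genes 6 of 8 were higher in mature cells, H2-D1 by 2.67-fold, and none was higher in immature cells. Of 9 adhesion genes 5 were higher in mature cells in every mouse, including Cd44 at 1.92-fold, and 2 in immature cells, including Itgam, the integrin CD11b, at 1.56-fold. The gelatinase and secretory vesicle list went both ways, with 3 of 11 genes higher in immature and 4 in mature cells, among them Tyrobp at 2.10-fold, while Mmp9 (0.953) and Fcer1g (1.14) had ratios of immature to mature near 1. Of the NADPH oxidase genes 4 of 6 were higher in immature cells in every mouse, including Cyba by 1.71-fold, while Rac2, with a ratio of 1.09, did not go the same way in every mouse. Of 10 transcription factor genes 6 were higher in mature cells in every mouse, including Cebpb at 3.55-fold and Mxd1 at 1.75-fold, while Klf2, the most abundant, did not go the same way in every mouse (mean ratio of mature to immature 1.51). In the immediate early list 6 of 13 were higher in mature cells in every mouse, with Zfp36 at 2.09-fold. Of 84 ribosomal protein genes 9 were higher in mature and 1 in immature cells in every mouse, and the means of Rps9, Rps27a and Rps29, the most abundant, were 1.68-, 1.32- and 1.10-fold higher in mature cells.

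Transcripts of the azurophil proteases came mostly from 2 of the 410 cells. Mpo, myeloperoxidase, had 511 UMIs in 6 cells, 74.0% of them in 1 adult 0% cell, and Elane, neutrophil elastase, had 530 UMIs in 8 cells. The adult 0% cell held 639 UMIs of Elane, Mpo, Prtn3 and Ctsg per 10,000 with only 13.8 of Camp, Ngp and Ltf, so the rule counted it as mature. The other, from the aged 0% mouse, held 1064 of these genes together with 1533 of Camp, Ngp and Ltf. Of the 7 azurophil granule genes with enough UMIs 1 was higher in immature and 1 in mature cells in every mouse. Srgn, the proteoglycan of granules, was 8.79-fold higher in mature cells, and Serpinb1a, an inhibitor of these proteases, 10.0-fold higher in immature cells.

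Dividing cells were found at the immature end. A cell was counted as dividing when at least 3 of 10 cell cycle genes had a UMI, and 24 cells were. They numbered 7, 11, 4 and 1 among immature cells and 1, 0, 0 and 0 among mature cells, and 21 of the 23 immature ones had 800 or more UMIs of Camp, Ngp and Ltf per 10,000. Mki67 and Top2a, a proliferation marker and a topoisomerase of dividing cells, stood at 2.19 and 2.08 UMIs per 10,000 in that range and at 0.369 or less in every other. As shares of immature cells the dividing cells were 17.1, 18.6, 10.3 and 2.50%, with a mean of 17.9% ± 1.11 over the adult pair and 6.38% ± 5.48 over the aged pair (SD, n = 2 per age, p = 0.333 by exact two-sided permutation). They were deep cells, with a median of 20518.5 UMIs against 9599.5 for the other immature cells, and immature cells were deeper in the adult mice (medians 9926, 11885, 9542 and 9534.5). After each cell was thinned to 3000 UMIs, leaving out 2, 2, 2 and 3 shallower immature cells, at least 2 of the genes were found in 7 of 39, 10 of 57, 4 of 37 and 1 of 37 immature cells. At that depth both adult mice were above both aged mice by this count. With at least 3 genes the cells numbered 7, 9, 3 and 1, with the ages in the same order. With at least 1 gene they numbered 7, 15, 8 and 4, and the adult 0% mouse was not above the aged 0% mouse.

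Of the immature cells, the share at 800 or more was 51.2, 42.4, 38.5 and 22.5%, with a mean of 46.8% ± 6.26 over the adult pair and 30.5% ± 11.3 over the aged pair (SD, n = 2 per age, p = 0.333 by exact two-sided permutation). Sums over a mouse's granulocytes therefore hold more of the earliest cells in adult mice, and the part of this mixture in the age comparisons below was not tested.

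The first question of the study, applied to granulocytes, was which genes differ between adult and aged mice. The level of S100a8 (1341, 1167, 1297 and 1383 UMIs per 10,000) overlapped between the ages. That of S100a9 (1445, 1321, 1537 and 1489) was higher in both aged mice, and as both genes chose the cells no test is given for them. Besides these and Camp and Ngp, the 10 most abundant nuclear genes were Tmsb4x (217, 187, 202 and 218), Malat1 (158, 196, 158 and 157), Retnlg, Ttr, Lyz2 (136, 116, 109 and 86.4) and Lcn2 (113, 110, 103 and 94.0), of which Retnlg, Ttr, Lyz2 and Lcn2 did not overlap between the ages. Ttr stood at 54.6, 289, 31.2 and 32.7, and 71.2% of its UMIs came from 1 cell. Camp was lower in each aged mouse than in either adult mouse (294, 248, 225 and 147), as was Ngp (225, 186, 160 and 133).

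Over all granulocytes, the quasi-likelihood test of edgeR, adjusted by Benjamini-Hochberg, called none of 6129 genes (0%) at an adjusted p under 0.05 and a change over 1.5-fold. Without adjustment 602 genes had p under 0.05, and DESeq2 called 17 of 4832 (0.352%), 9 higher and 8 lower in aged mice. With diet as a covariate, which compares the ages within each diet, edgeR called 68 genes, 16 higher and 52 lower. The genes of smallest p were the stefin genes Cstdc4 and Stfa2l1, which encode inhibitors of cysteine proteases, and Rrm2, a subunit of the enzyme that makes DNA precursors. Stfa2l1 stood at 0.919, 1.35, 4.73 and 3.73 UMIs per 10,000 and Cstdc4 at 1.65, 1.83, 7.35 and 5.06. Both aged mice were above both adult mice, with log2 fold changes of 1.92 ± 0.23 and 1.87 ± 0.22 (SE, adjusted p = 0.172 for each by edgeR). Cells with a Stfa2l1 UMI numbered 11, 20, 27 and 25, and 6 of the 7591 C1q-rich cells had one. Stefin genes form a cluster of near-identical copies on chromosome 16 (Stfa2l1 at chr16:36156811-36161953, plus strand, protein-coding), so the count of each copy is uncertain.

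Rrm2 stood at 0.717, 0.555, 0.0801 and 0.0971 UMIs per 10,000 (log2 fold change -2.78 ± 0.35, adjusted p = 0.172 by edgeR). S100a6, a calcium-binding protein, stood at 36.7, 41.8, 72.6 and 82.0 (1.01 ± 0.15, adjusted p = 0.192 by edgeR) and Retnlg at 118, 105, 194 and 193 (0.82 ± 0.17, adjusted p = 0.218 by edgeR). None of these overlapped between the ages, and DESeq2 called all 5. Basp1, a membrane-associated protein, stood at 0.436, 0.365, 1.20 and 1.11 (1.58 ± 0.22). Among the other genes with the smallest p, Cldn10, Slc6a11, Crym and Cspg5 are genes of astrocytes and other brain cells, and were lower in the aged mice, where the summed astrocyte markers were also lower.

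Without the 58 cells that held brain cell transcripts, edgeR called 43 of 4622 genes higher (0.93%) and 107 lower (2.32%) in aged mice. Of 17 cell cycle genes, 16 were lower and none higher, with a median log2 fold change of -1.99 against 0.00414 over all genes tested. Among them were Top2a at -3.35 ± 0.34, Stmn1, a microtubule regulator, at -2.91 ± 0.24 and Mki67 at -2.84 ± 0.25 (adjusted p = 0.000692, 0.000329 and 0.000329 by edgeR). Others among the lowest were the chromatin gene Ezh2 (-4.72), the DNA precursor genes Dut (-4.30) and Tyms (-2.91), Hmgb3 (-3.99), Atad2 (-3.22), Tpx2 of the spindle (-3.20), Rnaseh2b (-3.04) and Prg4 (-3.15). Rrm2 was at -3.39 ± 0.41.

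Among the genes that passed as higher in aged mice without those 58 cells were Stfa2l1 (1.73 ± 0.22), Cstdc4 (1.66 ± 0.15), S100a6 (0.94 ± 0.14) and Retnlg (0.72 ± 0.10), with adjusted p = 0.00266, 0.000329, 0.00848 and 0.00704 by edgeR. The cytokine gene Osm (0.85), Ccl6 (0.64), Wfdc17 (1.21), the receptor gene Clec4e (0.74), Ifitm2 (0.75), Klf2 (0.62) and the MHC class I gene H2-Q7 (2.93) passed as well, as did Chil3 (-1.13) and Cebpe (-0.61) in the lower direction. Igkc, the immunoglobulin light chain of plasma cells, had the highest value (3.79). Of these genes, Chil3, Cebpe and Mki67 were higher in immature cells in every mouse, and Stfa2l1, Cstdc4, S100a6, Retnlg, Osm, Ccl6, Wfdc17, Clec4e and Ifitm2 higher in mature cells in every mouse. The 9 microglia markers together stood at 1.70, 2.07, 2.75 and 2.77 UMIs per 10,000 over all granulocytes. Their part in the age comparison was not tested. With all 410 cells, leaving out the adult 0%, adult 5%, aged 0% or aged 5% mouse gave 340, 205, 30 or 6 called genes.

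The immature cells were also compared on their own. edgeR called 30 of 4093 genes, 12 higher (0.293%) and 18 lower (0.44%) in aged mice, and DESeq2 called 30 of 2081. Leaving out the adult 0%, adult 5%, aged 0% or aged 5% mouse gave 117, 82, 259 or 158 calls, and diet as a covariate 84. Stfa2l1 rose from 0.363 and 0.111 UMIs per 10,000 in the adult to 2.46 and 2.80 in the aged mice (log2 fold change 3.67 ± 0.40, adjusted p = 0.00366 by edgeR). It was found in 2, 4, 7 and 7 immature cells, and 18.0% of its 250 UMIs came from 1 cell. Ifi27l2a, an interferon-induced gene, rose from 0.149 and 0.382 to 0.944 and 1.52 (2.15 ± 0.40, adjusted p = 0.0399 by edgeR), Basp1 from 0.171 and 0.197 to 0.768 and 0.799 (2.11 ± 0.31, adjusted p = 0.0153 by edgeR), and the receptor gene Mrgpra2b from 1.49 and 1.53 to 2.98 and 3.00 (1.04 ± 0.20, adjusted p = 0.0453 by edgeR).

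The genes that fell in immature cells included Rrm2, from 0.939 and 0.850 to 0.132 and 0.175 UMIs per 10,000 (log2 fold change -2.47 ± 0.34, adjusted p = 0.0143 by edgeR), the replication histone gene Hist1h2ap, from 11.4 and 5.18 to 2.13 and 1.35 (-2.19 ± 0.35, adjusted p = 0.0198), and Pclaf, from 1.32 and 1.22 to 0.461 and 0.200 (-1.85 ± 0.33, adjusted p = 0.0344). The histone chaperone gene Anp32b fell by 1.48 on the log2 scale and Jun by 1.66. For each of these genes the 2 adult mice lay apart from the 2 aged mice. In mature cells Jun had the opposite sign (1.26 ± 0.40) and did not pass (adjusted p = 0.518 by edgeR). In immature cells 2 of the 17 cell cycle genes passed as lower (Rrm2 and Pclaf) and all 17 had a negative value. Their median was -0.98 against -0.000794 over all genes tested. Mki67 (1.73, 1.55, 0.856 and 0.200) and Top2a (2.13, 1.20, 0.615 and 0.175) did not pass, with adjusted p = 0.158 and 0.0824 by edgeR.

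Most other genes called in immature cells are known from brain cells. Tmem212, Ccdc153, Rarres2, Tppp3, Meig1, Dbi, Tuba1a and Gm19935 were higher in aged mice, and 1 cell held 54.3% of the Tmem212 UMIs and 65.0% of the Meig1 UMIs. Tmem212, Ccdc153 and Meig1 are genes of ciliated ependymal cells. Slc1a2 and Aldoc of astrocytes, Flt1, Epas1, Slco1a4 and Slco1c1 of vessels, and Ptn, Mfge8, Cspg5, Dclk1, Jcad, Spock2 and Cxcl12 were lower. Without the cells that held brain cell transcripts, edgeR called 29 of 3367 genes, 4 higher (0.119%) and 25 lower (0.743%). Of the 30 genes above, 6 were called again, 6 were tested and did not pass, and the rest were no longer tested. Slc1a2, Aldoc, Flt1, Tmem212, Ccdc153 and Rarres2 were among the marker genes that chose the cells left out. Their loss was therefore fixed by that choice and carries no test. Mrgpra2b (1.10), Basp1 (1.55) and Jun (-1.44) kept their direction and no longer passed, with adjusted p = 0.0504, 0.0885 and 0.0874 by edgeR. The 4 higher genes were Stfa2l1 (3.34 ± 0.37), Ifi27l2a (2.18 ± 0.33), Tinagl1 (1.25) and S100a6 (1.08), and the 25 lower held 11 of the 17 cell cycle genes, including Top2a (-3.07 ± 0.34), Mki67 (-2.55 ± 0.29) and Stmn1 (-2.71 ± 0.27).

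**Figure D5:**
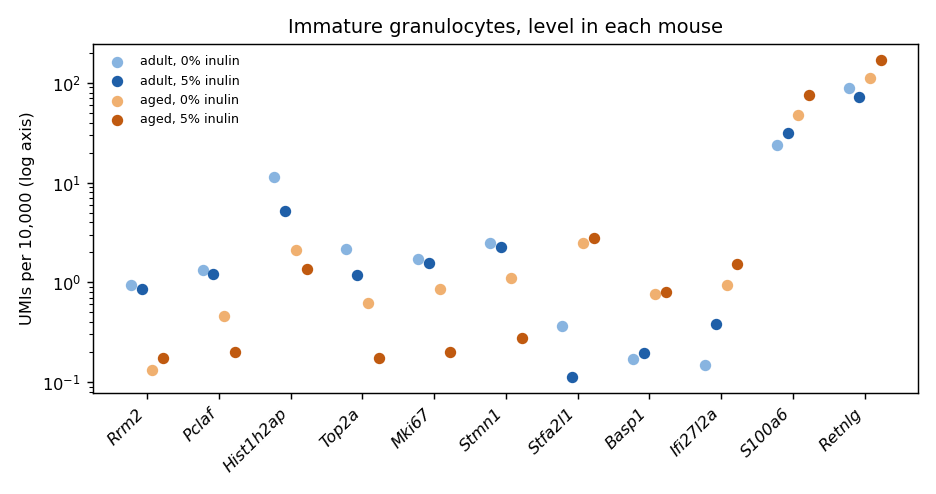
Level of 11 genes in the immature granulocytes of each mouse, in UMIs per 10,000 on a log axis, 1 point per mouse. Rrm2, Pclaf, Hist1h2ap, Top2a, Mki67 and Stmn1 are higher in both adult mice, and Stfa2l1, Basp1, Ifi27l2a, S100a6 and Retnlg higher in both aged mice. Top2a, Mki67, Stmn1, S100a6 and Retnlg did not pass the test in all immature cells.

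In mature cells no age difference passed by edgeR. It called none of 3948 genes (0%), 283 had an unadjusted p under 0.05, and DESeq2 called 3 of 16547 (0.0181%), Igfbp2, Fmo2 and Mpo. Without the adult 0%, adult 5%, aged 0% or aged 5% mouse edgeR called 189, 101, 106 or 55, and with diet as a covariate 8. Without the cells that held brain cell transcripts edgeR again called none, of 2559, with 202 at an unadjusted p under 0.05. Retnlg stood at 201, 166, 321 and 222 UMIs per 10,000 and Stfa2l1 at 2.42, 3.58, 8.26 and 4.90, both without overlap between the ages (0.60 ± 0.31 and 1.13 ± 0.39, adjusted p = 0.777 and 0.542 by edgeR). Il1b (42.4, 17.5, 34.8 and 28.5), Cxcr2 (13.3, 9.02, 12.6 and 10.2) and Csf3r (15.8, 8.97, 13.1 and 9.18) overlapped, and within each age the 0% inulin mouse had the higher level of all 3. The adult 5% mature cells include the barcode of 84351 UMIs rich in choroid plexus genes, out of 449141 UMIs in all. Its part in this order was not tested. The genes of smallest p included Crym, Sox9, Fmo2, Slc6a11, F3, Sox4, Gabrb1, Ank2 and Rorb, with an adjusted p of 0.42 for each by edgeR, and are mostly astrocyte and other brain cell genes.

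The gene lists, with no call over all granulocytes, leaned as follows between the ages. The median log2 fold change was 0.64 for MHC class I genes (10 of 10 positive), 0.63 for the interferon response (18 of 19), 0.45 for cytokines and inflammation (11 of 17), 0.39 for receptors (13 of 17), 0.32 for transcription factors (8 of 11), 0.27 for gelatinase granules and secretory vesicles (11 of 11), 0.22 for adhesion (8 of 10), 0.22 for immediate early genes (11 of 15) and 0.18 for the NADPH oxidase (5 of 6). It was -0.17 for specific granules (6 of 14 positive), -0.70 for azurophil granules (2 of 8), -1.13 for the cell cycle (0 of 17) and -0.0182 for ribosomal proteins (42 of 89), against -0.0205 over all 6129 genes. In mature cells alone the medians were closer to 0 for the interferon response (0.16), receptors (0.0848), cytokines (-0.0355) and the cell cycle (-0.27, 8 genes tested), and 0.41 for MHC class I. For specific granules the median was 0.35 in mature cells, and for azurophil granules 0.85 in immature cells (5 of 6 positive), both opposite in sign to that over all granulocytes. Among the azurophil genes, 85.4% of the Elane UMIs and 79.5% of the Prtn3 UMIs in immature cells came from 1 cell each. H2-D1, the most abundant MHC class I gene, stood at 27.2, 21.3, 27.3 and 29.5 UMIs per 10,000 in mature and 7.75, 8.78, 10.5 and 12.5 in immature cells. It was also higher in both aged mice in C1q-rich cells (6.80, 6.61, 16.4 and 17.0) and over the barcodes outside the rule (3.92, 6.01, 9.52 and 9.17).

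The second question was the effect of inulin. edgeR called none of 6129 genes between 5 and 0% inulin (0%), with 367 at an unadjusted p under 0.05, and DESeq2 called 22 of 3053 (0.721%), 21 higher and 1 lower. With age as a covariate edgeR called 82, 70 higher and 12 lower. The genes of smallest p were genes of vessels: Rgs5 of pericytes (0.203, 3.10, 0.214 and 1.89 UMIs per 10,000), Cldn5 of endothelial tight junctions (0.732, 3.36, 0.668 and 4.13) and Igfbp7 (0.312, 2.47, 0.334 and 1.75). All were higher in both 5% mice, where the summed endothelial markers were also higher. Without the cells that held brain cell transcripts edgeR called none of 4622 genes and 58 had an unadjusted p under 0.05. Rgs5 and Cldn5 were among the marker genes that chose the cells left out, so this count carries no test of them. Mpo, the single gene lower by DESeq2, came mostly from the 2 cells named above, both from 0% inulin mice. Ffar2, the fatty acid receptor, stood at 0.499, 0.436, 0.24 and 0.25 UMIs per 10,000 over all granulocytes (log2 fold change with 5% inulin -0.11 ± 0.43, adjusted p = 0.998 by edgeR). The median log2 fold change with inulin was -3.19 for azurophil granules (0 of 8 positive), whose proteases came mostly from those 2 cells, and -0.55 for the cell cycle (1 of 17 positive). Among the other lists it ran from -0.38 for cytokines and inflammation to 0.24 for MHC class I and 0.28 for the interferon response, against -0.0109 over all genes. Leaving out the adult 0%, adult 5%, aged 0% or aged 5% mouse gave 21, 141, 9 or 181 called genes.

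To see whether granulocytes aged like the resident phagocytes of the same brains, the age effect was compared with that of the C1q-rich cells in 1 model with a term for each mouse. edgeR called 159 of 15947 genes, 27 with a more positive effect in granulocytes (0.169%) and 132 with a more negative one (0.828%). Lgals3, galectin-3, stood at 0.364, 0.236, 2.41 and 3.71 UMIs per 10,000 in C1q-rich cells and at 8.06, 7.10, 9.34 and 10.5 in granulocytes (difference in log2 fold change -3.06 ± 0.27, adjusted p = 3.11e-10). Il1rn, the interleukin-1 receptor antagonist, stood at 0.00437, 0.00145, 0.0751 and 0.109 against 0.779, 1.00, 0.841 and 0.777 (-5.13 ± 0.50, adjusted p = 3.43e-09 by edgeR), and Cybb at 0.476, 0.458, 1.34 and 1.46 against 13.6, 11.2, 11.4 and 9.71 (-1.91 ± 0.27, adjusted p = 1.11e-05 by edgeR). In these 3 genes the aged C1q-rich cells were above the adult ones, and the granulocytes, at a higher level in every mouse, had log2 fold changes of 0.42 ± 0.15, -0.11 ± 0.21 and -0.20 ± 0.17 with age, none of which passed.

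Of the 17 cell cycle genes 13 were called, each more negative in granulocytes, with a median difference of -2.25 against -0.0644 over all genes. Mki67 stood at 0.0896, 0.0479, 0.210 and 0.187 UMIs per 10,000 in C1q-rich cells and at 1.36, 1.01, 0.521 and 0.111 in granulocytes (-3.66 ± 0.42, adjusted p = 1.11e-07 by edgeR). The ages were ordered oppositely in the 2 cell populations, without overlap in either. No gene of the MHC class I and interferon lists was called, beside 159 of 15947 over all genes. Both lists leaned to a more negative effect in granulocytes. The median difference was -0.47 for MHC class I (8 of 10 negative) and -0.85 for the interferon list (19 of 22 negative). The number of calls fell most when either adult mouse was left out, which leaves 1 adult mouse in the fit. Without the granulocytes and the C1q-rich cells that held brain cell transcripts, 541 of 13508 genes were called. With all cells kept, DESeq2 called 47 of 10163.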

How the data were processed

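Single-cell RNA was measured in 4 whole mouse brains. The authors deposited UMI counts per gene and barcode, made with Cell Ranger 3.1.0 on GRCm38 per the submitters' processing notes. Granulocytes were chosen from these counts by the rule given above, and the members and gene lists were chosen with earlier results of these data known. Counts were summed per mouse and tested with edgeR 4.0.16 in R 4.3.3 (filterByExpr, TMM scaling, quasi-likelihood test, Benjamini-Hochberg adjustment over all genes), aged against adult and 5% against 0% inulin, with 2 mice in each group. Genes passed at an adjusted p under 0.05 and a change over 1.5-fold. DESeq2 1.42.0 was run as an alternative. Shares were compared with exact permutation tests, and intervals are exact Clopper-Pearson 95% intervals (scipy 1.17.1), which cover counting error only. Doublets were scored with Scrublet in scanpy 1.11.5 and kept. Separate mice were the replicates, but library and mouse cannot be told apart.

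Named genes were the markers of the rule, the 3 most abundant and any called members of each list, the 12 highest and 12 lowest called genes or, where fewer than 5 were called, the 10 of smallest p, the 12 of largest and of smallest ratio between immature and mature cells among genes with at least 100 UMIs and 1 direction in every mouse, and the 10 most abundant nuclear genes. Genes outside this rule were chosen after their values were seen, and some results are not reported here. The tests were checked on simulated data. With 200 genes changed 2-fold, edgeR recovered 3% over all granulocytes, 12.5% in immature and 0% in mature cells. With 4-fold changes it recovered 71, 77.5 and 46%, with 12, 1 and 3 false calls. A gene that was not called may therefore still differ by 2-fold.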

Additional observations from a re-analysis of the deposited data

Results flagged for a closer look

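The granulocyte share of barcodes was higher with 5% inulin in adult mice, by 0.4275 percentage points, and lower in aged mice, by -0.2974. The immature share of granulocytes was lower with 5% inulin in adult mice, by -4.524 percentage points, and higher in aged mice, by 2.952. Each value compares 1 mouse with 1 mouse, and the difference between the ages was not tested.

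The age effect of 159 genes differed between granulocytes and C1q-rich cells by a test of the difference itself. The number called fell most when either adult mouse was left out.

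Outside the chosen cells, 16 barcodes (4, 5, 3 and 4 by mouse) held at least 30 UMIs of azurophil protease genes per 10,000. Their S100a8 and S100a9 reached at most 3.40, 0.587, 4.16 and 65.5 UMIs per 10,000, below the rule, and their median depths were 31868.5, 43967, 26423 and 9523 UMIs.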

How the results depend on the processing

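The labels give no replicate numbers, so mice could be matched only by the other factor. The ages share both diets, so the fits with diet, or for diet with age, as a covariate compare mice within the other factor, and their counts are given here. Leaving out a mouse leaves an arm of 1 mouse, which is then assumed to vary like the others. The age difference in the granulocyte share ran from -0.0655 to 0.362 percentage points when 1 mouse was left out, and was negative without the adult 0% mouse (-0.0655) and the aged 0% mouse (-0.000449). The immature share kept its direction in every setting tried, from -11.3 to -6.75 without 1 mouse.

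Called gene counts moved widely. For age in all granulocytes, against 0 calls, DESeq2 gave 17, no filter on low counts 202, diet as a covariate 68, thinning to 500 UMIs 3, leaving out cells with brain transcripts 150, an S100 limit of 200 gave 79, and leaving out 1 mouse 6 to 340. In mature cells, against 0, DESeq2 gave 3, no filter 109, the covariate 8 and leaving out 1 mouse 55 to 189. In immature cells, against 30, no filter gave 215, the covariate 84, thinning 0 and leaving out 1 mouse 82 to 259. For diet, against 0, DESeq2 gave 22, RLE size factors 5, no filter 180, age as a covariate 82, a minimum of 1000 UMIs 3, leaving out Scrublet calls 9, and leaving out 1 mouse 9 to 181. For the difference from C1q-rich cells, against 159, DESeq2 gave 47, no filter 255, leaving out Scrublet calls 263, leaving out cells with brain transcripts 541 and leaving out 1 mouse 1 to 179. The causes were not tested.

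Among the named genes called in immature cells or of smallest p in the other age comparisons, 485 values kept direction and side of the threshold, 99 passed it, 22 no longer passed it and 1 turned direction, that of Dbi in immature cells (-0.138) without the cells that held brain transcripts.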
